A study of Mus musculus with 6 samples.

Results

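Vcam1, Icam1, Selp, Vwf, Il1r1, Nfkbia, Ptgs2, Ch25h, Lcn2 and Tgm2 are genes by which blood vessel endothelium takes part in inflammation. They are 10 of the 32285 genes in the count tables, chosen by symbol from a list of inflammatory adhesion genes drawn up with earlier results of these data in view. Their levels in endothelium, their occurrence in the same cells and their differences between groups are therefore described here, and the p-values place each gene among all genes tested without supporting the choice. The RNA came from single cells of adult mouse brain cortex and subventricular zone, the ventricle wall in which neural stem cells persist. Endothelial cells (CD31+ Glast- CD45-) and neural stem and progenitor cells (CD31- Glast+ CD45-) were sorted after 30 min of enzymatic digestion. There were 3 groups of 2 libraries, all from mice 8 to 12 weeks old and all with floxed Cx43 (Gja1, connexin 43) as the targeted gene: the control genotype Cx43flox/flox, the genotype Cx43GlastiKO and the genotype Cx43ECiKO, whose libraries carry the name Vecad. The labels call the 2 libraries of a group biological replicates, but their make-up differed: endothelial barcodes were 62.1 to 67.6% of the 3 libraries numbered 1 and 0.748 to 4.70% of those numbered 2. The labels do not say whether the numbers mark separate animals or sorted fractions, so the spread over 2 libraries may also hold that difference. They state neither the Cre line nor the inducing treatment, nor the share of cells in which the gene was deleted.

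Leukocytes leave the blood by first rolling on selectins and then holding firmly to immunoglobulin-type adhesion molecules of the endothelium, of which VCAM-1 and ICAM-1 are the best known. Interleukin 1 and related cytokines switch these molecules on through the transcription factor NF-κB, and NF-κB also raises its own inhibitor, IκBα, the product of Nfkbia. In the brain this step takes place mainly in venules, while the capillary bed that forms most of the blood-brain barrier shows little of it at rest.

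Of 7433 barcodes, 1674 were endothelial: they held at least 5 UMIs (unique molecules) of Cldn5, Flt1, Pecam1 and Cdh5 together and at least 3 times as many as of the 4 markers of any other class. Control replicates 1 and 2 gave 722 and 43 of them, GlastiKO replicates 1 and 2 gave 441 and 62, and ECiKO replicates 1 and 2 gave 386 and 20. Their summed depth was 2616786 and 117817, 1570696 and 220558, and 1256480 and 37514 UMIs in the same order, so the libraries numbered 2 bound each gene only loosely. Median depth per barcode lay between 2567 and 3502.5 UMIs except in ECiKO replicate 2, where it was 1122. Markers of other classes were low in these barcodes in part by the choice, since the gate asks for a 3-fold lead over each class. Ependymal, choroid plexus and microglial markers were at 0 UMIs in all 6 libraries. Leukocyte markers gave at most 5 UMIs in a library and platelet markers at most 18. Neuroblast markers gave 78, 76 and 27 UMIs in control, GlastiKO and ECiKO replicate 1, the most of any other class there. Astroglial markers gave 25 UMIs in GlastiKO replicate 2, and oligodendrocyte markers gave 3 in ECiKO replicate 2. Gja1 itself stood at 92.5 and 110 CPM (UMIs per 1000000 endothelial UMIs) in control, 143 and 150 in the libraries labelled GlastiKO and 228 and 213 in those labelled ECiKO, so it was higher, not lower, where the label names an endothelial knockout (log2 fold change 1.21 ± 0.313 against control, SE, n = 2; edgeR adjusted p = 0.0403). The names GlastiKO and ECiKO below stand for libraries labelled in this way.

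The promoters of the genes are shown first because NF-κB is known to act on many of them. RefSeq promoters (GRCm38.p6, 250 bases before to 50 after the start) were matched for 7 of the 10 genes, at 8 start sites. Vcam1, Vwf and Tgm2 had no matched promoter and were not searched. The κB decamer, searched on both strands, was found in 2 genes, Nfkbia and, at the second start site, Il1r1, and it occurs in 8.46% of 32817 promoters. The 9-letter motif GGAAATTCC, which overlaps the decamer and was chosen after the sequences had been seen, was found in Nfkbia and Icam1 and occurs in 0.317% of promoters. The 250 bases before the start are printed for the 3 start sites with a match, 5′ to 3′ on the strand of the gene. Matches are in capitals: the decamer and the 9-letter motif together in Nfkbia, the 9-letter motif in Icam1 and the decamer in Il1r1.
Nfkbia, chr12:55492648-55492897, minus strand: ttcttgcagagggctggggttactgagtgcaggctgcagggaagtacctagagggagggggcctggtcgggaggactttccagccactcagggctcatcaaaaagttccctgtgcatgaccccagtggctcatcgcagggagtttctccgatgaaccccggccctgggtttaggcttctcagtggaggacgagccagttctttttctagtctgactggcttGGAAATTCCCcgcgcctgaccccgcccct
Icam1, chr9:21015690-21015939, plus strand: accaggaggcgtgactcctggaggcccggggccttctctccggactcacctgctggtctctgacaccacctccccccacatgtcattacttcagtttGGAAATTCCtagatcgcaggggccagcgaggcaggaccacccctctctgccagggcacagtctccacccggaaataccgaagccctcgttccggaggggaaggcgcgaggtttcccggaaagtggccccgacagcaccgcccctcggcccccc
Il1r1, second start site, chr1:40266336-40266585, plus strand: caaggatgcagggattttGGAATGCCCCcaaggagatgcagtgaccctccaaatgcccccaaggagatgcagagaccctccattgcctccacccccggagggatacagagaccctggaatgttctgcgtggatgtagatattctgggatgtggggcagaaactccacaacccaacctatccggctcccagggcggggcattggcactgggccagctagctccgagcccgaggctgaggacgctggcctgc
The match begins 29 bases before the start in Nfkbia, 153 before it in Icam1 and 232 before it in Il1r1. TATAAA, which occurs in 13.6% of promoters, was found in the windows of 3 genes (Icam1, Nfkbia and Ch25h). It begins 13 bases after the start in Icam1 and, on the opposite strand, 19 after it in Nfkbia, both outside the printed bases. In Ch25h it begins 151 bases before the start. TGANTCA, a loose form of the AP-1 motif with any middle base, was found in the window of Selp alone, as TGATTCA. It occurs in 7.81% of promoters. Windows of Ptgs2 and Lcn2 held none of these motifs.

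Vcam1 (chr3:116109949-116129688), the endothelial counter-receptor of the leukocyte integrin VLA-4, was present in a small share of endothelial barcodes and unevenly among these, with at most 31, 42 and 45 UMIs in 1 barcode of control, GlastiKO and ECiKO replicate 1 and at most 4 in the libraries numbered 2. It measured 79.9 and 59.4 CPM in control replicates 1 and 2, 184 and 49.9 CPM in GlastiKO and 139 and 0 CPM in ECiKO. GlastiKO replicate 1 and ECiKO replicate 1 lay above both controls, while the second library of each group lay below them. Vcam1 was seen in 5.68% of the endothelial barcodes of control replicate 1 (95% Clopper-Pearson interval 4.11 to 7.63%), 7.03% of GlastiKO replicate 1 and 7.25% of ECiKO replicate 1. All intervals cover counting error only.

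Icam1 (chr9:21015985-21028817), the partner of the integrin LFA-1, measured 55.4 and 84.9 CPM in control, 78.9 and 31.7 CPM in GlastiKO and 46.2 and 0 CPM in ECiKO. Both ECiKO libraries lay below both controls, the second with 0 of 37514 UMIs. The first GlastiKO library lay between the controls and the second below them. Between 6.99 and 12.2% of the barcodes of the 3 libraries numbered 1 held an Icam1 UMI.

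Selp (chr1:164115264-164150026) encodes P-selectin, which endothelium stores together with von Willebrand factor and shows on its surface when activated. No Selp UMI was found in any of the 1674 endothelial barcodes, which allows a share of up to 0.179% of barcodes with a UMI. A single Selp UMI was seen in all classes, in an astroglial barcode.

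Vwf (chr6:125546774-125686679), the clotting protein of those same stores, was far more widespread than the adhesion molecules. It measured 178 and 238 CPM in control, 251 and 163 CPM in GlastiKO and 189 and 187 CPM in ECiKO, and the groups overlapped in both comparisons. A UMI was found in 25.2, 34.7 and 26.2% of the barcodes of control, GlastiKO and ECiKO replicate 1.

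Il1r1 (chr1:40225080-40317257), the signalling receptor of interleukin 1, measured 46.6 and 34.0 CPM in control, 48.4 and 36.3 CPM in GlastiKO and 31.8 and 80.0 CPM in ECiKO. The highest of these values rests on 3 UMIs of a single barcode of ECiKO replicate 2. Nfkbia (chr12:55489410-55492647), the NF-κB inhibitor, measured 564 and 475 CPM in control, 824 and 716 CPM in GlastiKO and 680 and 187 CPM in ECiKO. Both GlastiKO libraries lay above both controls, and ECiKO replicate 2 lay below all others. Nfkbia was found in 67.6, 78.9 and 70.2% of the barcodes of the 3 libraries numbered 1, so it marked most endothelial cells where the adhesion genes marked few.

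The enzymes came next. Ptgs2 (chr1:150100031-150108227), the inducible cyclooxygenase that starts prostaglandin synthesis, measured 95.5 and 42.4 CPM in control, 48.4 and 18.1 CPM in GlastiKO and 35.0 and 26.7 CPM in ECiKO. Both ECiKO libraries lay below both controls, the second on 1 UMI. Ch25h (chr19:34473778-34475164), which makes the oxysterol 25-hydroxycholesterol, measured 6.50 and 0 CPM in control, 40.7 and 0 CPM in GlastiKO and 13.5 and 26.7 CPM in ECiKO. GlastiKO replicate 1 held 64 of its UMIs, against 17 in control replicate 1, 17 in ECiKO replicate 1 and 1 in ECiKO replicate 2. Tgm2 (chr2:158116402-158146436), the protein-crosslinking tissue transglutaminase, measured 123 and 93.4 CPM in control, 111 and 109 CPM in GlastiKO and 121 and 53.3 CPM in ECiKO. The 3 libraries numbered 1 lay between 111 and 123 CPM for Tgm2.

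Lcn2 (chr2:32384633-32388252), the iron-siderophore binding acute phase protein lipocalin 2, measured 15.7 and 25.5 CPM in control, 26.1 and 0 CPM in GlastiKO and 31.8 and 26.7 CPM in ECiKO. The second value of each group rests on at most 3 UMIs. Lcn2 was seen in 2.08, 3.17 and 2.85% of the barcodes of control, GlastiKO and ECiKO replicate 1.

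**Figure D1:**
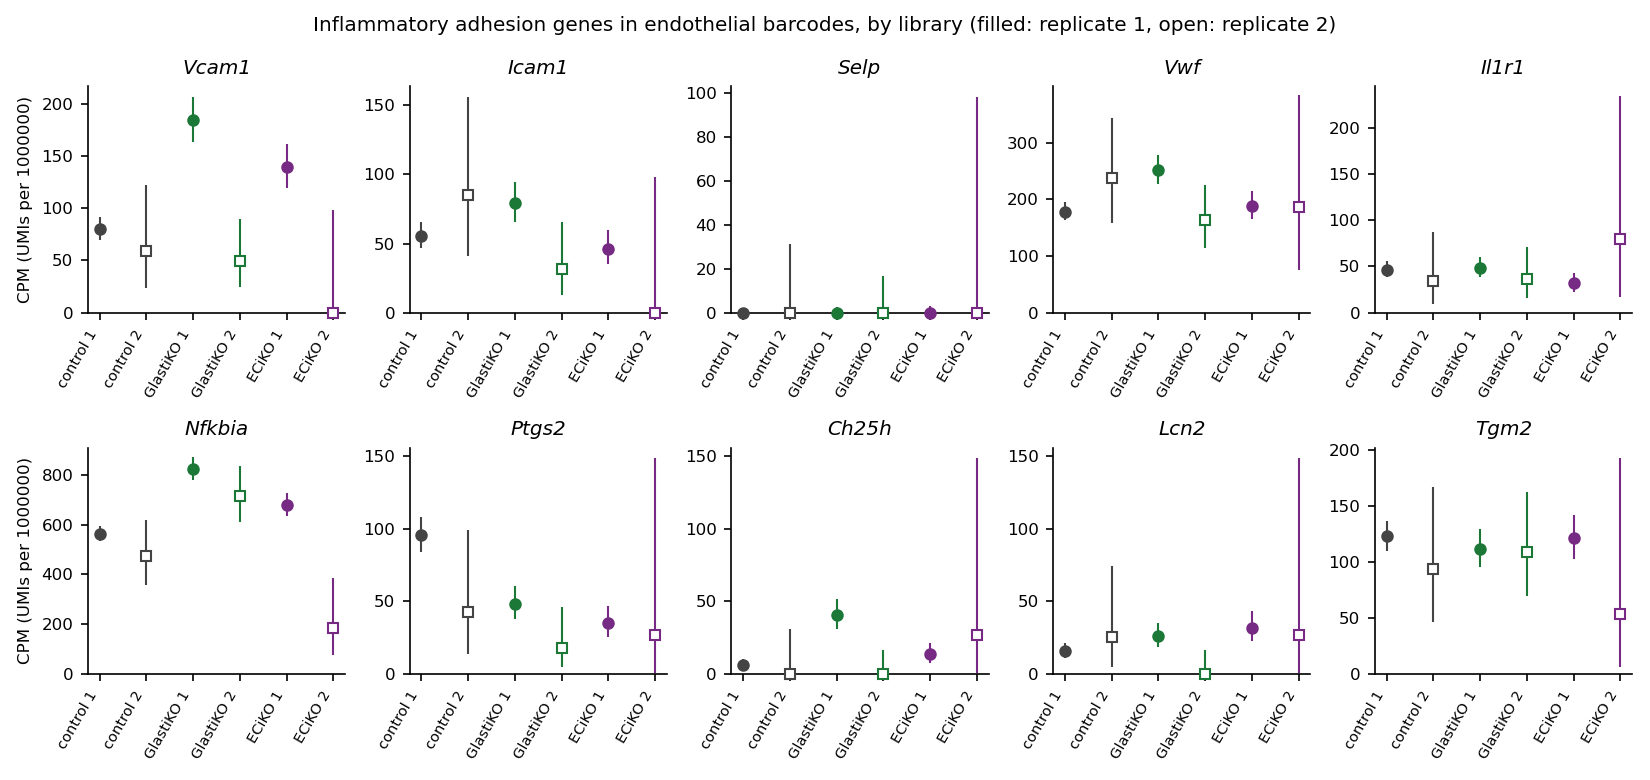
Level of each gene in endothelial barcodes (y axis, UMIs per 1000000) for each of the 6 libraries (x axis), with 95% exact Poisson intervals. Filled circles are replicates 1 and open squares replicates 2; the wide bars of ECiKO replicate 2 come from 37514 UMIs, and Selp is at 0 throughout.

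The comparisons set the endothelium of the libraries labelled GlastiKO and ECiKO against that of control. Since endothelial Gja1 passed the test upward in ECiKO, neither comparison is read here as one of endothelium that has lost connexin 43. UMIs were summed per library and fitted by edgeR over 8686 genes, of which 9 were members, since Selp fell under the count filter. In GlastiKO, 1 of the 9 was called at an adjusted p of 0.05, against 0.345% of all genes tested (30 genes; 0.138% were called higher and 0.207% lower). That gene was Ch25h, which rose by 2.35 ± 0.584 on the log2 scale (SE, 2 libraries a group; edgeR adjusted p = 0.0194), with 1 GlastiKO and 1 control library both at 0. The call ended with library size in place of TMM scaling (edgeR adjusted p = 0.0679), with every barcode that passed the gate (0.148), without the 44 barcodes rich in Plvap, Igfbp3 and Esm1 (0.141) and with DESeq2 (unadjusted p = 0.304). Without control replicate 1 or GlastiKO replicate 1 the gene fell under the count filter, and so it did with the 4 libraries of the 2 groups only. Of those libraries only GlastiKO replicate 1 stood above 6.50 CPM, so the gene was tested only because the ECiKO libraries entered the filter too. In GlastiKO replicate 1 the 2 richest barcodes held 56.2% of its Ch25h UMIs, and with the 2 richest barcodes of each library left out the level was 17.9 CPM there and 3.83 CPM in control replicate 1.

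No other gene of the set passed this test, with group as its only term, in GlastiKO. Vcam1 had a log2 fold change of 0.91 ± 0.297 (SE, n = 2; edgeR adjusted p = 0.436), which became 1.35 (edgeR adjusted p = 0.0136) without GlastiKO replicate 2 and turned to -0.60 without GlastiKO replicate 1. Nfkbia had 0.62 ± 0.300 (SE, n = 2; edgeR adjusted p = 1.00) and was the only member whose GlastiKO libraries did not overlap the controls, where 28.9% of all genes did not overlap (14.1% higher and 14.8% lower). Ptgs2 had -0.99 ± 0.363 (SE, n = 2; edgeR adjusted p = 0.904), which turned to 0.10 without control replicate 1. The 5 other genes, Icam1, Vwf, Il1r1, Lcn2 and Tgm2, had log2 fold changes between -0.02 and 0.38. The median over the 9 genes was 0.21, with 7 of 9 above 0, beside 0.00 over all genes tested.

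In ECiKO none of the 9 genes was called by edgeR with group as the only term or by DESeq2, against 0.276% of all genes in edgeR (24 genes; 0.0345% higher and 0.242% lower). Of the 9, Ptgs2 and Vcam1 had the lowest unadjusted edgeR p. Ptgs2 had a log2 fold change of -1.26 ± 0.413 (SE, n = 2; edgeR adjusted p = 0.510), which shrank to -0.18 without control replicate 1. Vcam1 had 0.70 ± 0.319 (SE, n = 2; edgeR adjusted p = 1.00), with ECiKO replicate 2 at 0. Ch25h and Lcn2 had 1.22 ± 0.696 and 0.93 ± 0.488, and the remaining 5 lay between -0.48 and -0.02. The libraries of the groups did not overlap for 3 of the 9, higher for Ch25h and lower for Icam1 and Ptgs2, where 29.6% of all genes did not overlap (10.7% higher and 18.8% lower). In ECiKO replicate 2 the levels of Ch25h and Ptgs2 rest on 1 UMI each and that of Icam1 on 0, out of 37514. The median was -0.02, with 3 of 9 above 0, beside -0.03 over all genes tested. Both comparisons share the control libraries. Prior degrees of freedom were infinite, so each p and SE rests on a spread pooled over genes and says little about the scatter of a gene that a few cells carry. In sums over cells, fewer cells of a kind and less RNA per cell cannot be told apart.

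The rest of the pathway gave no calls beyond this. Of 18 genes of NF-κB signalling and feedback, 15 were tested and none was called in either comparison, with medians of 0.34 in GlastiKO and 0.20 in ECiKO. The most abundant of them were Ikbkb and Chuk, the kinases that mark IκB for destruction, and the subunits Nfkb1 and Rela, at -0.34, -0.25, -0.31 and -0.08 in GlastiKO and 0.13, 0.26, 0.02 and 0.44 in ECiKO. None of 13 tested cytokine receptors and adaptors was called, with medians of -0.15 in GlastiKO and -0.11 in ECiKO. The interferon receptor chains Ifnar1 and Ifnar2 led them in level, with log2 fold changes of -0.33 and -0.09 in GlastiKO and -0.18 and -0.06 in ECiKO. Only 8 of 20 induced chemokines, cytokines and acute phase genes reached the count filter, and none was called, with medians of -0.02 and -0.41. Among them the acute phase factor Cebpd had 0.65 ± 0.292 in GlastiKO and 0.32 ± 0.314 in ECiKO, and the transcription factor Stat3 had 0.01 and 0.09. None of 12 other adhesion and transmigration genes was called, with medians of -0.03 and -0.16: the junction protein Esam had 0.07 and -0.16, and Cd34, a sialomucin, 0.13 and -0.24. Nor was any of 4 tested prostanoid and oxysterol genes, where the prostaglandin exporter Abcc4 had 0.29 and 0.19 and the sterol exporter Abca1 0.04 and 0.04. The venous markers, with 4 tested and medians of -0.23 and -0.08, were not called either, and Slc38a5, a glutamine carrier of veins and venules, had -0.19 and -0.35.

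Immediate early genes are known to respond to enzymatic dissociation, and their level is given beside that of Nfkbia. The 12 immediate early genes summed to 4539 and 7062 CPM in control, 6631 and 4860 CPM in GlastiKO and 4645 and 746 CPM in ECiKO. ECiKO replicate 2 was therefore lowest for these genes as well as for Nfkbia, and the part of dissociation in the group values was not tested. Within libraries, endothelial barcodes with an Nfkbia UMI held a median of 2, 4 and 2 immediate early UMIs in control, GlastiKO and ECiKO replicate 1, against 1 in those without, at 1500 UMIs per barcode. Other genes of the set went the same way in some libraries only. Barcodes with Vcam1 held a median of 8, 5 and 2 against 2, 3 and 2 without it. Barcodes with Ptgs2 held 1 against 2 in control replicate 1 and 7 against 3 in GlastiKO replicate 1. Of the 12 genes, Egr3, a zinc finger factor, was called in both comparisons, where 0.345 and 0.276% of all genes were, with 2.23 ± 0.423 in GlastiKO (SE, n = 2; edgeR adjusted p = 0.000102) and 1.75 ± 0.458 in ECiKO (edgeR adjusted p = 0.0486). Its TMM-scaled level was 14.7 and 8.28 CPM in control, 78.4 and 37.9 CPM in GlastiKO and 52.4 and 0 CPM in ECiKO, so ECiKO overlapped the controls. Jun had 0.20 and -0.92 and Fos -0.21 and -1.12 in the same order, without passing.

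Set against the other cell classes, most of the genes belonged to endothelium. Oligodendrocyte barcodes, a class that should lack them, held 0 UMIs of Icam1, Il1r1, Ptgs2, Ch25h, Lcn2 and Tgm2 in 2510 barcodes, which allows a share of up to 0.12% of barcodes with a UMI. Their median depth was 15419, 17438 and 942 UMIs in control, GlastiKO and ECiKO replicate 2, so 2 of these 3 libraries were deeper per barcode than any endothelial set. Vwf gave 3 UMIs there. The libraries numbered 1 held too few oligodendrocytes to measure free RNA, and pericytes are given in their place. Vwf gave 2 UMIs in the 32 pericytes of control replicate 1 and 1 UMI in the 27 of GlastiKO replicate 1, so in 6.25 and 3.70% of barcodes, at median depths of 4725.5 and 5004 UMIs. Icam1, Ptgs2, Ch25h and Lcn2 were at 0 in both, and the part of free RNA in the endothelial values was not tested.

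Vcam1 and Il1r1 were the exceptions. Vcam1 was higher in astroglial barcodes (gated on Aqp4, Slc1a3, Ntsr2 and Gjb6) than in endothelium. It measured 314 CPM in control replicate 2 (95% exact Poisson interval 289 to 340), 261 CPM in GlastiKO replicate 2 (240 to 283) and 296 CPM in ECiKO replicate 2 (242 to 359). A UMI was found in 57.1, 56.0 and 36.6% of astroglial barcodes, at median depths of 3810.5, 4538.5 and 1869 UMIs. VCAM-1 is known on neural stem cells of the subventricular zone, and the astroglial gate does not part these from astrocytes. With 1 library per group there is no test; the GlastiKO to control ratio was 0.831 (0.740 to 0.933) and the ECiKO to control ratio 0.945 (0.761 to 1.16). Choroid plexus barcodes, from the epithelium that secretes cerebrospinal fluid, held 132 CPM in GlastiKO replicate 2 and 114 CPM in ECiKO replicate 2. Pericytes held none in 93 barcodes, which allows up to 3.23%. Within endothelial barcodes the 4 astroglial markers summed to 7.64 and 17.0 CPM in control, 21.6 and 113 CPM in GlastiKO and 4.78 and 0 CPM in ECiKO, and the part of astroglial RNA in endothelial Vcam1 was not tested.

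Il1r1 was shared with pericytes, the mural cells of capillaries. Pericyte barcodes held 51.9, 107 and 43.1 CPM in control replicate 1, GlastiKO replicate 1 and GlastiKO replicate 2, against 46.6, 48.4 and 36.3 CPM in the endothelium of the same libraries. The pericyte value was the higher one in all 3, with overlapping 95% exact Poisson intervals. A UMI was found in 21.9, 37.0 and 23.5% of pericyte barcodes and in 9.83, 10.7 and 8.06% of endothelial ones, the pericytes being deeper with medians of 4725.5, 5004 and 6260.5 UMIs. Choroid plexus followed with 7.50 and 24.8 CPM, and astroglia with 0 to 4.69 CPM. Nfkbia was found in every class with barcodes enough to measure it: 187 to 824 CPM in endothelium, 93.1 to 143 CPM in pericytes, 71.1 CPM in the neuroblasts of GlastiKO replicate 2, and 19.8 to 40.0 CPM in choroid plexus, astroglia and oligodendrocytes. The endothelial and pericyte ranges did not overlap, while the ranges of the last 3 classes overlapped. Tgm2 was found at 7.16 to 19.5 CPM in pericytes against 53.3 to 123 CPM in endothelium.

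**Figure D2:**
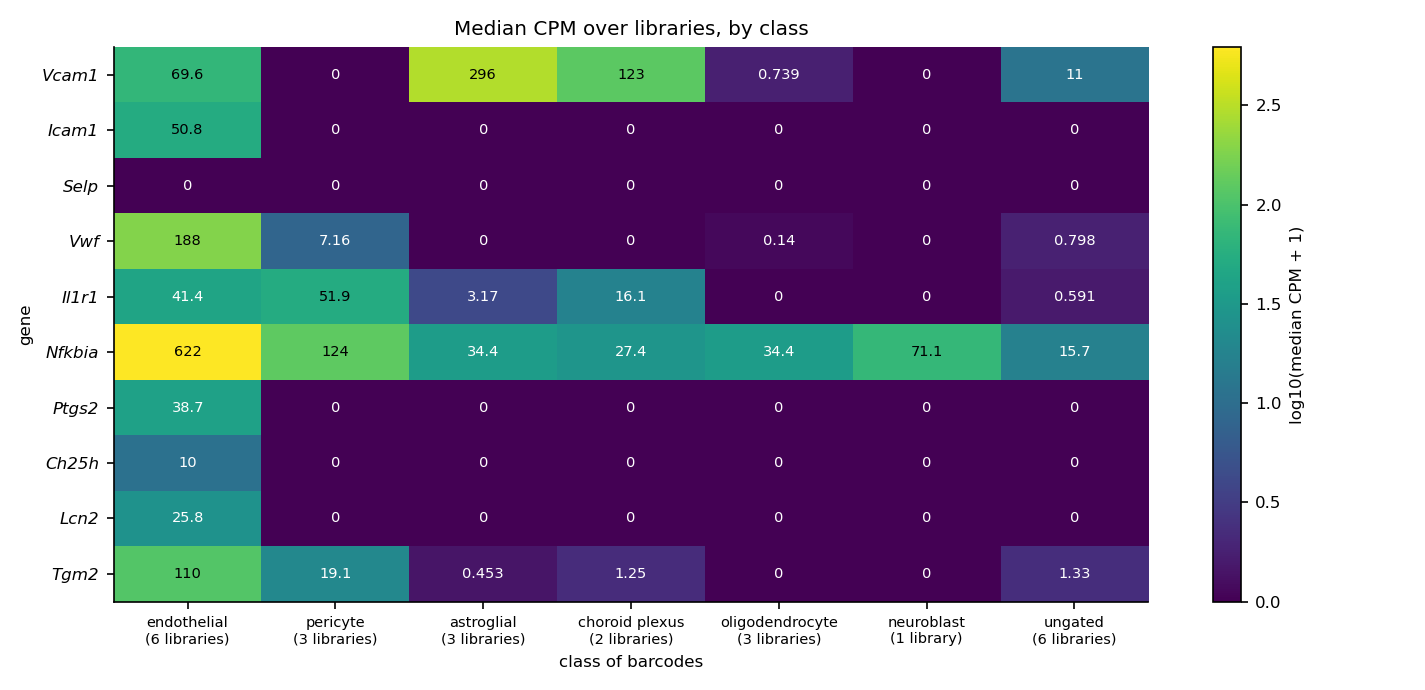
Median level over libraries (numbers, UMIs per 1000000; colour, log10 of the median plus 1) of each gene (rows) in the classes of barcodes (columns), for libraries with at least 20 barcodes of a class. Vcam1 peaks in astroglial barcodes at 296, Il1r1 is shared between endothelium and pericytes, and Nfkbia is present in all columns.

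Within the endothelium the genes were not spread evenly, and a few barcodes carried most of the molecules. In control replicate 1, 50% of the Ptgs2 UMIs lay in 2 barcodes, of the Lcn2 and Ch25h UMIs in 3, of the Vcam1 UMIs in 6 and of the Icam1 UMIs in 7, out of 722. Il1r1 needed 19 barcodes, Vwf 33, Tgm2 50 and Nfkbia 111. The share held by the 2 richest barcodes was 24.2 to 76.5% for Ptgs2, Ch25h, Lcn2, Vcam1 and Icam1 in the 3 libraries numbered 1, 11.5 to 30.0% for Il1r1, and 2.51 to 11.4% for Vwf, Tgm2 and Nfkbia. Within the first 5 the order differed between libraries: Ptgs2 had 53.6, 60.5 and 38.6% in control, GlastiKO and ECiKO replicate 1, Vcam1 25.8, 29.1 and 43.4% and Icam1 31.7, 24.2 and 37.9%. Without the 2 richest barcodes of each library, Ptgs2 stood at 44.6 CPM in control replicate 1, 19.2 in GlastiKO replicate 1 and 21.7 in ECiKO replicate 1. The control library was still the highest. The 2 barcodes are a smaller part of its 722 than of the 441 and 386 of the other libraries, so it was trimmed least.

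**Figure D3:**
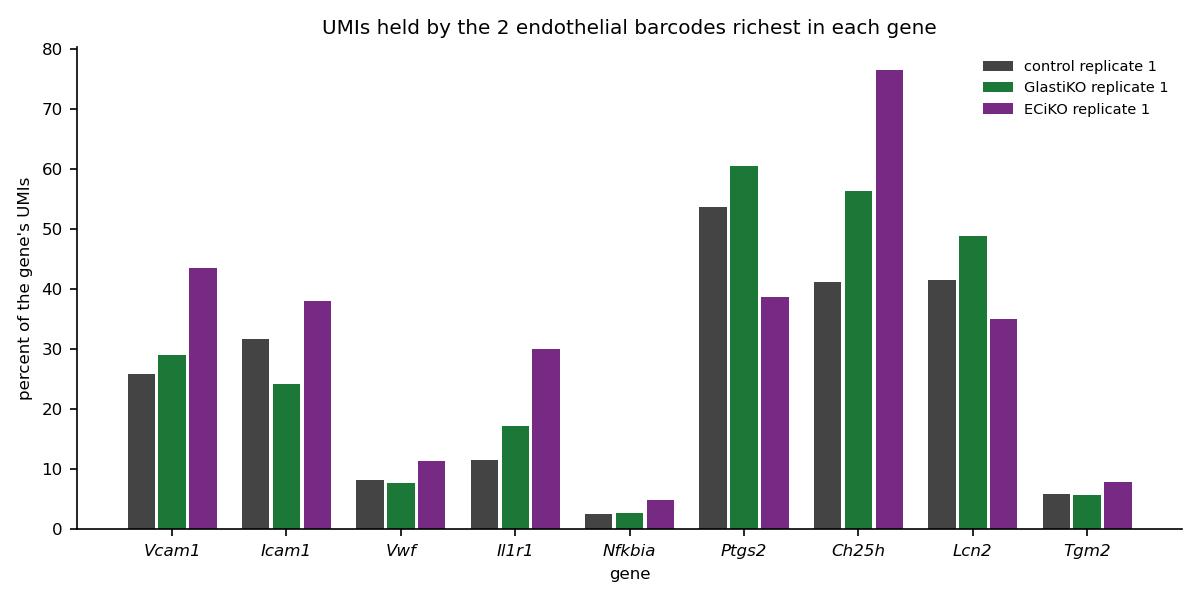
Share of the UMIs of each gene (y axis, percent) held by the 2 endothelial barcodes richest in it, in the 3 libraries numbered 1 (bars). Ptgs2, Ch25h and Lcn2 reach between 35.0 and 76.5%, while Nfkbia stays under 5%.

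The barcodes richest in Ptgs2 were rich in several of the genes at once. The barcode of control replicate 1 with the most Ptgs2 held 70 UMIs of it, 27 of Icam1, 20 of Vwf, 12 of Nfkbia, 11 of Vcam1 and 11 of Tgm2, at a depth of 11316 UMIs. In GlastiKO replicate 1 the barcode richest in Ptgs2 (41 UMIs) was also the richest in Ch25h (23 UMIs), and it held 16 Vwf, 15 Vcam1, 10 Icam1 and 9 Il1r1 UMIs at a depth of 3979. In ECiKO replicate 1 a single barcode was richest in Ptgs2 (12), Ch25h (9) and Lcn2 (8), with 31 Vcam1 and 25 Nfkbia UMIs. All 3 held 0 UMIs of the markers of any other class, and they held 34, 47 and 23 UMIs of the venous markers against 4, 0 and 0 of the arterial ones. Other rich barcodes varied in how many of the genes they held. The Vcam1-richest barcode of ECiKO replicate 1 (45 UMIs) held 9 of the 10 genes. The Vcam1-richest barcode of GlastiKO replicate 1 (42 UMIs) held 0 UMIs of Il1r1, Ptgs2, Ch25h and Lcn2 and 1 of the venous markers, and its Lcn2-richest barcode (15 UMIs) held 0 of Icam1, Il1r1, Ptgs2 and Tgm2.

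Barcodes with at least 5 of the 10 genes made up 4.71% of control replicate 1 (34 barcodes), 5.90% of GlastiKO replicate 1 (26) and 3.89% of ECiKO replicate 1 (15). They held 83.7, 86.5 and 84.0% of the Vcam1 UMIs and 87.2, 73.7 and 75.0% of the Ptgs2 UMIs, but 11.9, 11.5 and 10.6% of the Nfkbia UMIs. High shares of the rarer genes follow in part from the choice, since these same genes picked the barcodes. They were deeper than the whole set, with medians of 5302, 4553.5 and 4048 UMIs against 3502.5, 3246 and 2886.5, which by itself lets more genes be seen. Their venous marker UMIs were 26.0, 18.5 and 29.1 per 10000, against 6.52, 5.76 and 5.92 over all endothelial barcodes. Their arterial marker UMIs were 7.41, 15.8 and 0.372 per 10000, against 5.80, 6.28 and 6.10. In control and GlastiKO replicate 1 markers of both kinds were thus higher in them, and in ECiKO replicate 1 the venous ones only.

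To set depth aside, each barcode was thinned to 1500 UMIs, which left 609, 373 and 288 barcodes in control, GlastiKO and ECiKO replicate 1. Vwf was then found in 75.0, 71.4 and 66.7% of the barcodes with a Vcam1 UMI and in 13.4, 20.0 and 13.6% of those without. Ptgs2 was found in 35.7, 17.9 and 20.0% with Vcam1 and in 2.24, 1.74 and 1.10% without. Icam1 was found in 28.6, 25.0 and 33.3% with Vcam1 and in 2.75, 6.38 and 2.20% without. Il1r1 and Lcn2 went the same way, with Lcn2 at 10.7, 17.9 and 33.3% against 0.688, 0.870 and 0.733%. The Vcam1-positive sets held 28, 28 and 15 barcodes, so single shares are loose, and cells of a library share their source.

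Nfkbia stood apart from this group. It was found in 53.6, 67.9 and 73.3% of barcodes with Vcam1 and in 46.1, 60.6 and 54.9% without. With Vwf it gave 44.4, 61.8 and 44.7% against 46.9, 60.9 and 58.1%, so the direction differed between libraries. Of 30 pairs of genes, each counted once and with at least 10 barcodes positive for its first gene in all 3 libraries, 21 had a higher share of the second gene with the first than without it in every library. The reverse held in every library for 1 pair, Nfkbia with Ptgs2 (for 0 pairs when thinned to 1000 UMIs), and 8 were mixed. All mixed pairs but Icam1 with Lcn2 and Il1r1 with Ch25h involved Nfkbia. Pairs of other genes were not counted, so these counts have no background.

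**Figure D4:**
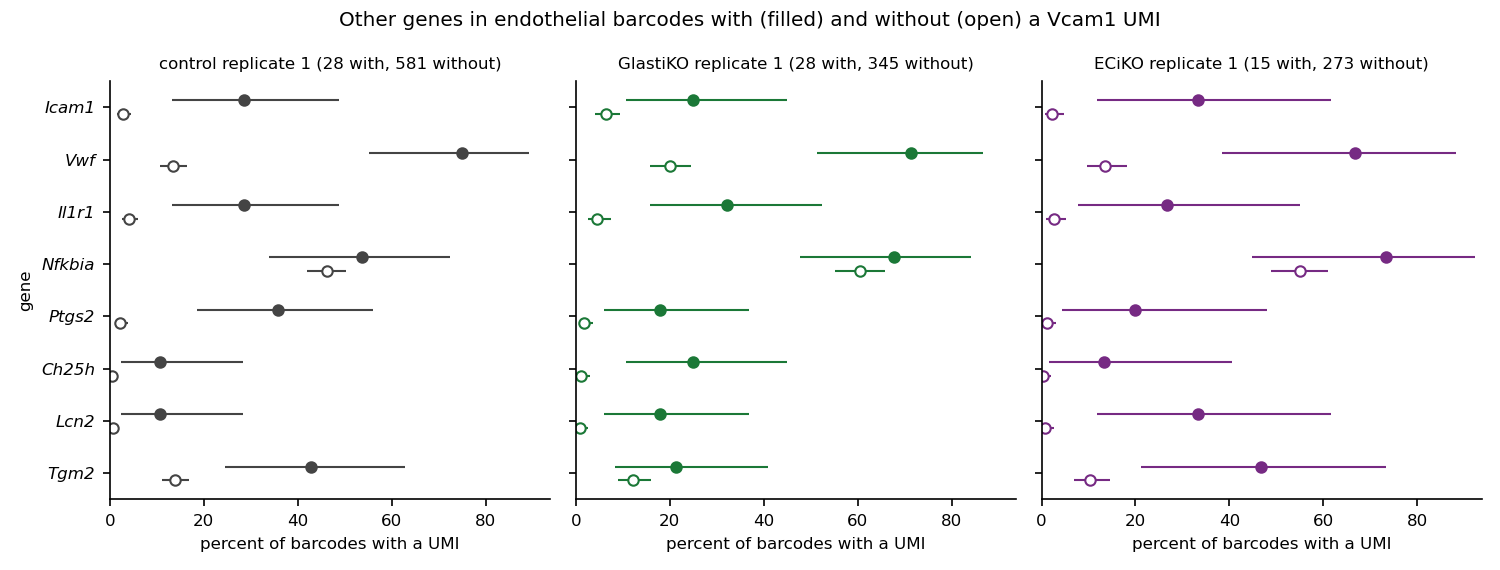
Share of endothelial barcodes with a UMI (x axis, percent, 1500 UMIs per barcode) of each other gene (y axis) among barcodes with (filled) and without (open) Vcam1, with 95% Clopper-Pearson intervals, in the 3 libraries numbered 1. Vwf lies at 66.7 to 75.0% with Vcam1 and 13.4 to 20.0% without, and the Nfkbia intervals overlap in each library.

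Among genes found in at least 5% of the endothelial barcodes of each library numbered 1, several of the nearest companions were again members. Likeness was the Pearson correlation of log counts per 10000 across the endothelial barcodes of a library, averaged over the 3 libraries numbered 1 (722, 441 and 386 barcodes, which share library and depth), among 6721 genes. The genes most like Vcam1 included Vwf (mean r = 0.41) and Il1r1 (0.38). Members below that share were not ranked, and of these Lcn2 (0.48) and Ptgs2 (0.43) had a higher mean r with Vcam1 than Vwf had. Those most like Il1r1 included Vcam1 (0.38) and Wnt5a (0.36), a secreted Wnt ligand, and those most like Icam1 included Vcam1 (0.36) and the macrophage growth factor Csf1 (0.27). Vwf was most like Vcam1 (0.41), with Il1r1 (0.30) also among its nearest genes, and Tgm2 was most like Vcam1 (0.23), with Icam1 (0.21) among its nearest. Nfkbia was instead most like Junb (0.28), polyubiquitin Ubb (0.26) and Ier2 (0.25), of which Junb and Ier2 are immediate early genes.

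Veins, arteries and the remaining bed were set apart by markers that include none of the 10 genes. A thinned barcode with at least 3 UMIs of 6 venous markers, among them Slc38a5, Lrg1, Ackr1, Nr2f2 and Ephb4, and at most 1 of 8 arterial markers was put in the venous range, and the reverse in the arterial range. Barcodes with at most 1 of each were called remaining. These are ranges of a marker sum and not cell types: the venous range held 64, 37 and 34 barcodes in control, GlastiKO and ECiKO replicate 1, of which 27, 19 and 17 lay exactly at 3 UMIs. The arterial range held 44, 36 and 15 and the remaining range 411, 246 and 193. A further 90, 54 and 46 barcodes met none of these rules and lay between the ranges. Of the venous markers, Lrg1 is also in the list of induced genes and Ackr1 in that of adhesion genes. The capillary lipid carrier Mfsd2a, which was not used, measured 271, 264 and 243 CPM in the venous and 440, 449 and 535 CPM in the remaining range.

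Of the 10 genes, 8 were higher in the venous than in the remaining range in all 3 libraries, all but Nfkbia and Selp. The share of all genes that were so was not computed, so the count by itself does not set the 10 apart. Vcam1 measured 546, 679 and 634 CPM in the venous range of control, GlastiKO and ECiKO replicate 1 against 7.80, 60.1 and 19.7 CPM in the remaining range. Ptgs2 measured 717, 297 and 196 CPM against 10.2, 18.6 and 7.87 CPM. Lcn2 measured 130, 217 and 243 CPM against 0.600, 6.22 and 2.62 CPM, and the arterial range held none. The venous to remaining ratio was 11.3 to 70.1 for Vcam1 and 35.0 to 217 for Lcn2, and 1.51 to 3.69 for Tgm2.

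Vwf and Vcam1 were also higher in the arterial than in the remaining range in all 3 libraries. Vwf measured 601, 857 and 593 CPM in the venous, 196, 326 and 304 CPM in the arterial and 76.2, 138 and 86.6 CPM in the remaining range. Arterial Vcam1 was 108, 207 and 80.0 CPM. Icam1, Il1r1 and Lcn2 were higher in the arterial than in the remaining range in none of the 3. Nfkbia was nearly flat, with a venous to remaining ratio of 0.915 to 1.48. The immediate early genes summed to 6818, 8067 and 4679 CPM in the venous range and 4659, 6628 and 5133 CPM in the remaining range, and their part in the difference between the ranges was not tested.

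Between libraries, the levels within the ranges depended on where the ranges were set. Venous Ch25h was 32.6 CPM in control replicate 1, 244 CPM in GlastiKO replicate 1 and 94.4 CPM in ECiKO replicate 1, and 19.2, 188 and 65.3 CPM with 2 marker UMIs in place of 3. Venous Ptgs2 was highest in control at both settings. Venous Icam1 was 275, 191 and 195 CPM, and 175, 218 and 174 CPM with 2 marker UMIs, so the highest library changed. Venous Vcam1, given above, had overlapping intervals at 3 marker UMIs in the 3 libraries. With 2 it was 341 CPM in control (95% exact Poisson interval 290 to 398), 621 CPM in GlastiKO (535 to 718) and 605 CPM in ECiKO (509 to 715), and the control interval lay below both others. The barcodes between the ranges held 55.9, 430 and 306 CPM of Vcam1 in the same order. In the remaining range GlastiKO replicate 1 was the highest in Vcam1. With 1 library a group at this depth there is no test.

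**Figure D5:**
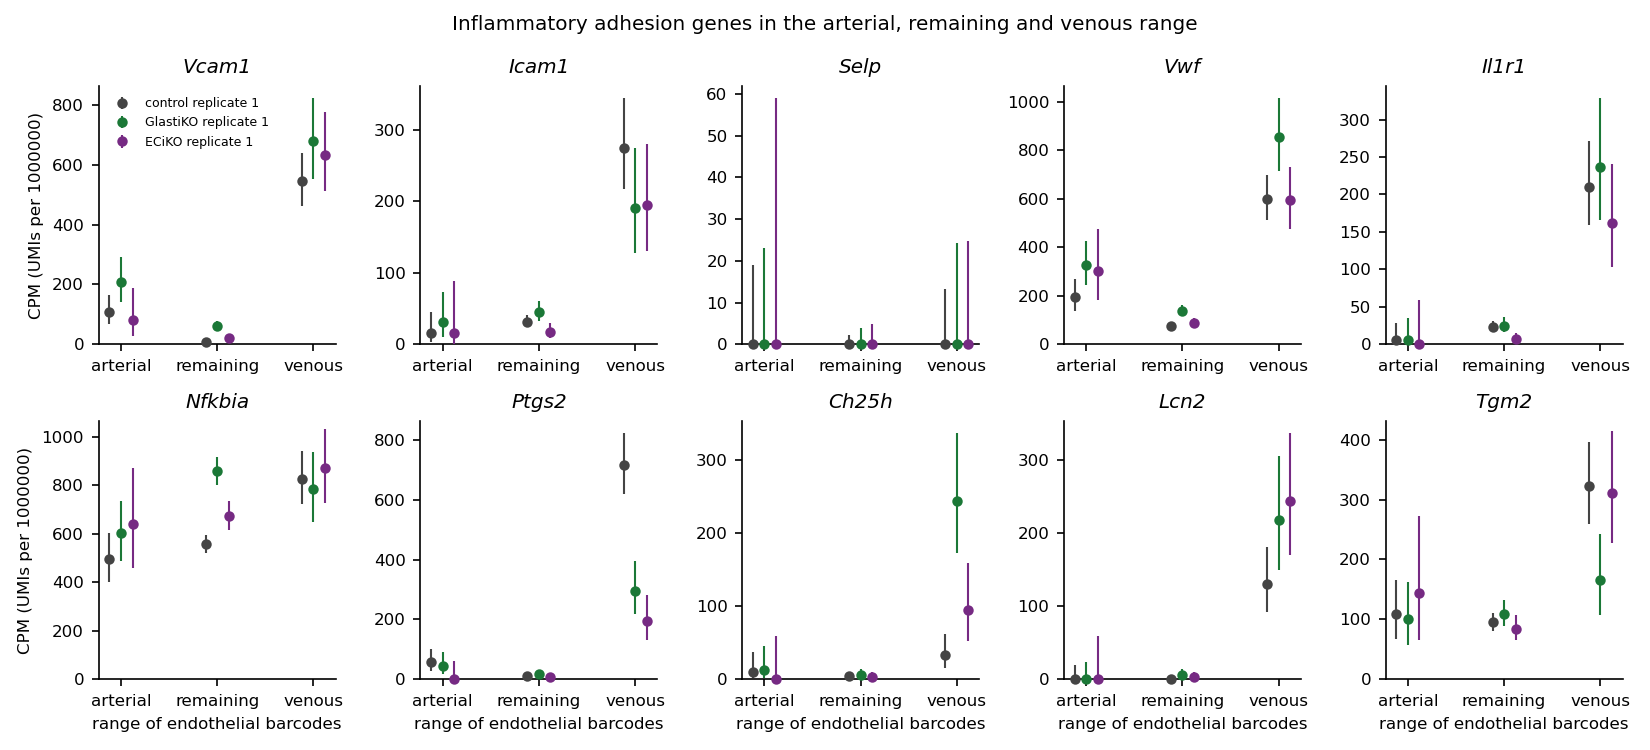
Level of each gene (y axis, UMIs per 1000000) in the arterial, remaining and venous range of endothelial barcodes (x axis) of the 3 libraries numbered 1, with 95% exact Poisson intervals. Of the 10 genes, 8 are higher in the venous than in the remaining range in all 3 libraries. Nfkbia is higher in 2 of the 3, and Selp is at 0.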

How the data were processed

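Single-cell RNA of 6 libraries (10x Chromium 3′ kit) was deposited as UMI counts by gene and barcode, not normalized. The mm10 genome and Cell Ranger 5.0.0 are named in the labels' protocols and the file headers, but Cell Ranger 2.1.1 and Seurat 4 stand in the submitters' processing notes. The 10 genes, the gene lists and the tests were chosen with earlier results of these data known. Barcodes were classed by 13 sets of 4 markers. Of 7433 barcodes, 75 passed a gate without a 3-fold lead and were left out, and 1974 passed none and were called ungated. No doublet caller was run, so doublets of 2 endothelial cells remain. Of the barcode sequences, 5 occurred in more than 1 library. Of the endothelial barcodes, 71 (4.24%) held 5 to 7 gate UMIs.

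CPM is UMIs per 1000000 UMIs of the class in a library, and 3′ UMIs were not scaled to gene length, so levels are compared within a gene. Intervals are exact at 95%, and a count of 0 is given the limit of 3 counts. Endothelial sums of all 6 libraries were tested with edgeR 4.0.16 in R 4.3.3 (filterByExpr, TMM, quasi-likelihood F test, group as the only term, 3 residual degrees of freedom, Benjamini-Hochberg at 0.05 over 8686 genes). The SE of a log2 fold change is its size over the root of its F statistic. The test was checked on simulated counts. DESeq2 1.42.0, other scalings, gates and filters, a replicate block and leaving out each library were the alternatives. Co-expression, ranges and other classes are descriptions without a test. Named genes are the 10, up to 4 of each list by mean CPM and any called, and the 3 genes most like each of those found in at least 5% of barcodes; 1 gene that this rule names is not reported here. Capillary and arterial marker lists were fitted too: 6 and 7 of their genes were tested, none was called, and their medians were -0.16 and 0.04 in GlastiKO and -0.09 and 0.15 in ECiKO. Gene positions are those of GENCODE vM21 on mm10 (GRCm38).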

Additional observations from a re-analysis of the deposited data

How the results depend on the processing

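The number of genes called in endothelium depended on the tool and on the libraries numbered 1. In ECiKO against control it was 24, and it was 4 with DESeq2, 5 without the 44 barcodes rich in Plvap, Igfbp3 and Esm1 (a choice made after seeing the data; 34 of them are in control replicate 1) and 6 to 40 when each library was left out in turn. In GlastiKO against control it was 30, and it was 3, 8 and 8 to 37 under the same changes. Without control replicate 1 there were 6 in ECiKO and 8 in GlastiKO, without ECiKO replicate 1 there were 6, without GlastiKO replicate 1 there were 13 and without ECiKO replicate 2 there were 40. The cause was not tested. Of the members, Vwf and Nfkbia in ECiKO turned to 0.0267 and 0.0217 with a gate of 10 UMIs, and Nfkbia to 0.0373 with the 4 libraries of the 2 groups only. In GlastiKO, DESeq2 turned Icam1 to -0.14, Lcn2 to -0.24 and Tgm2 to 0.0473, and the replicate block turned Tgm2 to 0.00673. Leaving out each library gave log2 fold changes in ECiKO of -9.09 to 1.10 for Vcam1, -8.75 to -0.32 for Icam1, -0.30 to 0.0345 for Vwf, -0.43 to 0.58 for Il1r1, -1.72 to 0.47 for Nfkbia, -1.92 to -0.18 for Ptgs2, 1.12 to 1.19 for Ch25h, 0.99 to 1.01 for Lcn2 and -1.36 to 0.35 for Tgm2. In GlastiKO they were -0.60 to 1.35, -0.91 to 0.48, -0.24 to 0.47, -0.31 to 0.57, 0.46 to 0.84, -2.24 to 0.10, 2.28 to 2.78, 0.44 to 0.73 and -0.13 to 0.39 in the same order of genes. The values near -9 have ECiKO at 0 and depend on the prior count, and for Ch25h and Lcn2 some fits gave no value because the gene fell under the filter. Of all refitted log2 fold changes of the members, 210 kept direction and side of the threshold, 25 changed sign, 4 lost a call and 3 gained a call.

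The libraries share replicate numbers, but the differences between replicates 1 and 2 were barely correlated between groups (r = 0.05, 0.04 and 0.05 over 8686 genes), so the numbers were not taken as pairs. With a replicate block 35 genes were called in ECiKO and 39 in GlastiKO, and it added calls for Ptgs2 in ECiKO (-1.41, edgeR adjusted p = 0.00957) and Vcam1 in GlastiKO (1.10, edgeR adjusted p = 0.0215). Thinned to 1000 UMIs, 19 of 25 pairs had the higher share in every library and 0 had the lower share in every library. With 2 marker UMIs for a range 9 genes were higher in the venous range. Of the shares of barcodes computed at other depths, 28 moved beyond their interval and 92 did not. The 20 endothelial barcodes of ECiKO replicate 2 allow up to 15% of barcodes with a UMI for a gene at 0.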
